A study of Mus musculus with 6 samples.

Results

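The genes that encode the proteins of the mitochondrial ribosome were followed in day 3 iGCBs, in vitro germinal center B cells, that lacked or carried the translation initiation factor gene *Eif3e*. Members were all rows of the gene count table whose symbol starts with *Mrpl* (large subunit names) or *Mrps* (small subunit names) followed by a digit. This rule found 77 of the 24499 genes in the table, 48 with *Mrpl* and 29 with *Mrps* symbols, and all 77 were high enough to be tested. The rule used names only and no measured value.

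RNA-seq was performed on sorted YFP+ cells from 3 cKO and 3 control biological replicates, with 1 library each. Each replicate is counted here as 1 mouse, which the sample titles do not spell out. The cKO mice were *Eif3e* fl/fl and also carried *Cγ1*Cre and *Rosa26-YFP* LSL. The control mice have the genotype label control and library names with cgWT, a short form that the labels do not spell out, and their alleles were not stated for these libraries in the sources used here. The study's in vivo controls for the YFP+ comparison carried *Cγ1*Cre and *Rosa26-YFP* LSL, and cells of both groups were sorted for YFP here. *Cγ1*Cre is expressed once an activated B cell transcribes its γ1 heavy chain locus, and YFP marks cells in which Cre has acted. Splenic naïve B cells were grown for 3 days with IL-4 on 40LB feeder cells, irradiated fibroblasts that present CD40L and BAFF. The age of the mice was not given in the sources used here.

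Mitochondrial ribosomes, or mitoribosomes, translate the few mRNAs that are encoded by mitochondrial DNA, all of them for subunits of the respiratory chain and the ATP synthase. Their RNAs are encoded in mitochondria, whereas every one of their proteins is encoded in the nucleus, made by cytosolic ribosomes and imported, so that the supply of subunits depends on the cytosol. Some of these proteins have counterparts in the bacterial ribosome, and others are found only in mitochondria. B cell activation is known to increase mitochondrial mass as the cells grow and divide.

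Promoter sequences are shown first, so that the letters upstream of members that moved in opposite directions can be compared. RefSeq windows of GRCm38.p6, from 250 bases before to 50 bases after the annotated start, were at hand for 68 of the 77 members and for 27025 genes in all. Each window was searched on both strands for 4 motifs: GCGCATGC, the core bound by NRF1; CCGGAAGT, bound by ETS factors such as GABP; AAGATGGC, bound by YY1; and the E-box CACGTG, bound by MYC and other bHLH factors. No motif contains the letters of another, but matches of the NRF1 core can overlap on opposite strands. A match is a description of letters, not of a bound site.

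The YY1 motif was present in 12 of 68 members (17.6%), against 3.19% of all promoters and 5.24% of the 10100 promoters of tested genes. The ETS motif was also present in 12 of 68 (17.6%), against 4.31% of all promoters and 8.98% of those of tested genes. For the NRF1 core the members' share was 8 of 68 (11.8%), against 3.05% and 5.95%. The E-box was found in 5 of 68 members (7.35%), where all promoters gave 8.09% and those of tested genes 11.7%. At least 1 of the 4 motifs stood in 31 of 68 member promoters (45.6%), against 27.9% for tested genes.

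The following stretches run from 100 bases before to 30 bases after the start, 5′ to 3′ in the direction of the gene, with motif matches in capitals. The first 4 belong to members whose mRNA was higher in cKO iGCBs, the next 3 to members whose mRNA was lower, and the last to a divergent pair of members that share 1 promoter. They are examples and were not taken by size of change. Among the largest changes, *Mrpl55*, *Mrps6*, *Mrpl14* and *Mrps30* had 0 matches in the same stretch.
Mrps7, chr11:115604040-115604169, plus strand: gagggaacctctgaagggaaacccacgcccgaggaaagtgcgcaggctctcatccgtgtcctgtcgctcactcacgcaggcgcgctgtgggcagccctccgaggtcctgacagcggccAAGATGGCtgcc
Mrpl20, chr4:155802778-155802907, plus strand: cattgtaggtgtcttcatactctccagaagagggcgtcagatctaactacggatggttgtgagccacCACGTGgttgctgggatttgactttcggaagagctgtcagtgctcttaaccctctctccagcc
Mrpl36, chr13:73330909-73331038, plus strand: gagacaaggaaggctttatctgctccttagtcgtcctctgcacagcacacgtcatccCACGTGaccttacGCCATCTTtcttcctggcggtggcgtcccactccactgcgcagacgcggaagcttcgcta
Mrpl12, chr11:120484537-120484666, plus strand: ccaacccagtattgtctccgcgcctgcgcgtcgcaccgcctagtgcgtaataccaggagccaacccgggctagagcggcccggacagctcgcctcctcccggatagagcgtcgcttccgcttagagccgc
Mrpl27, chr11:94653691-94653820, plus strand: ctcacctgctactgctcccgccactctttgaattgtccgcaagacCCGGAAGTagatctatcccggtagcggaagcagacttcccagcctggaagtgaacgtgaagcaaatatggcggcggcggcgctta
Mrpl43, chr19:45006413-45006542, minus strand: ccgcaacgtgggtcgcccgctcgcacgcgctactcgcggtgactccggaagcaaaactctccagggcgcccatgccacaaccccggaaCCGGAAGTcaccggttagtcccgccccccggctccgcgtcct
Mrpl9, chr3:94443236-94443365, plus strand: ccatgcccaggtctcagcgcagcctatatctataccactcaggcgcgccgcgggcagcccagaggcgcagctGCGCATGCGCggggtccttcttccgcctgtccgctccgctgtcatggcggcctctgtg
Mrps11, chr7:78783031-78783160, plus strand: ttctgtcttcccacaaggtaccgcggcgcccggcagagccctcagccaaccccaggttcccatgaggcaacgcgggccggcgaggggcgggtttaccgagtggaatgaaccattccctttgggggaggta

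In *Mrps7* the YY1 motif began 18 bases after the start, and in *Mrpl20* the E-box lay 33 bases before it. *Mrpl36* held a YY1 motif on the opposite strand 30 bases before the start and an E-box 43 bases before it. The ETS motif lay 55 bases before the start in *Mrpl27* and 12 bases before it in *Mrpl43*, and *Mrpl9* had overlapping NRF1 matches on both strands, 28 and 26 bases before the start. *Mrpl12* had no match in the stretch shown. Motifs were not bound to 1 direction: *Mrpl3* and *Mrpl51*, both higher, also held an ETS motif, and *Mrps18a*, which was lower, a YY1 motif. The E-box was present in 4 of the 21 higher members with a window, in 0 of the 16 lower ones and in 1 of the 31 others, and the YY1 motif in 6, 2 and 4 of them. The ETS motif was present in 3, 3 and 6 of them and the NRF1 core in 2, 2 and 4. Differences between these small counts were not tested.

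*Eif3e* checked the labels. Its mRNA stood at 173, 150 and 152 CPM (counts scaled to the size of each library) in the cKO libraries and at 424, 401 and 392 CPM in the controls, which is 39.0% of the control level (log2 fold change −1.36, SE 0.0657, adjusted p = 6.71e-07 by edgeR's quasi-likelihood test). The groups did not overlap; with 3 mice against 3, the exact two-sided permutation p of 0.1 is the smallest possible. These counts cover the whole gene and not only the floxed part.

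Facts that touch all members follow. Libraries held 39079582 to 45504570 counts, so that 3 counts, taken as the detection floor, were worth 0.0661 to 0.0763 CPM, and the lowest count of any member in any library was 372. *Xist* counts were high in cKO replicate 2 and control replicates 1 and 2 and at most 16 in the other libraries, which instead had Y-linked counts, so both groups mixed female and male mice. With *Xist* as a covariate, 19 members were higher and 13 lower, beside 21.8% and 22.0% of all tested genes. All 8 B cell and germinal center markers were detected, with a summed level of 3768 to 3847 CPM in cKO and 3622 to 3815 CPM in control. The 14 feeder fibroblast markers summed to 110 to 137 CPM in cKO and 83.2 to 156 CPM in control, with *Postn* at 0 in all 6 libraries. In this list *Col5a1* (3.05-fold, adjusted p = 0.000185 by edgeR) and *Fn1* (2.10-fold, 0.000651) were higher and *Lox* was lower (0.348-fold, 0.0271). The 4 plasma cell markers summed to 157 to 176 CPM in cKO and 380 to 480 CPM in control without overlap. *Jchain*, *Prdm1* and *Xbp1* were lower, whereas *Sdc1*, which encodes CD138, was higher, with means of 14.2 and 4.70 CPM (3.02-fold, adjusted p = 2.06e-05 by edgeR). The 6 T cell markers with a row summed to 23.3 to 25.7 and 36.5 to 39.7 CPM, nearly all of it *Lck*, with *Cd3e* at 0 throughout, and the 6 myeloid markers to 12.1 to 13.6 and 9.90 to 12.7 CPM, among which *Adgre1* was higher (3.90-fold, adjusted p = 0.00203 by edgeR). The part of RNA from plasma cells, feeder cells or other cell types in the results below was not tested, and in bulk RNA fewer cells of a type and less RNA per cell cannot be told apart.

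The comparison of cKO with control asked whether loss of this initiation factor goes with altered mRNA levels of the mitochondrial translation machinery. Members moved in both directions. At an adjusted p under 0.05 (edgeR's quasi-likelihood test, Benjamini-Hochberg over 13296 genes), 24 of the 77 members were higher and 18 were lower in cKO iGCBs, and 35 did not pass. Over all tested genes 24.1% were higher and 24.5% lower, so the members' shares, 31.2% and 23.4%, lay near this background. Leaving out cKO replicate 1, cKO replicate 3 or control replicate 1 lowered the count of lower members to 11, 11 and 10. The share of lower genes over all tested genes fell as well, to 22.0%, 21.8% and 21.0% in these fits. Among the 5966 tested genes whose mean level lay within the members' range, 26.6% were higher and 31.0% lower.

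Effects were small. With a fold change over 1.5 added to the rule, 6 members were higher and 1 was lower, against 10.4% and 10.6% of all tested genes. The median log2 fold change over the members was 0.11, with quartiles of −0.17 and 0.33, and the median over all tested genes was −0.00. Without control replicate 2 the members' median was 0.05. In 29 members all 3 cKO libraries were above all 3 controls and in 19 all were below, where 29.2% and 29.5% of all tested genes did so. The SE of a member's log2 fold change ranged from 0.0557 to 0.134.

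**Figure D1:**
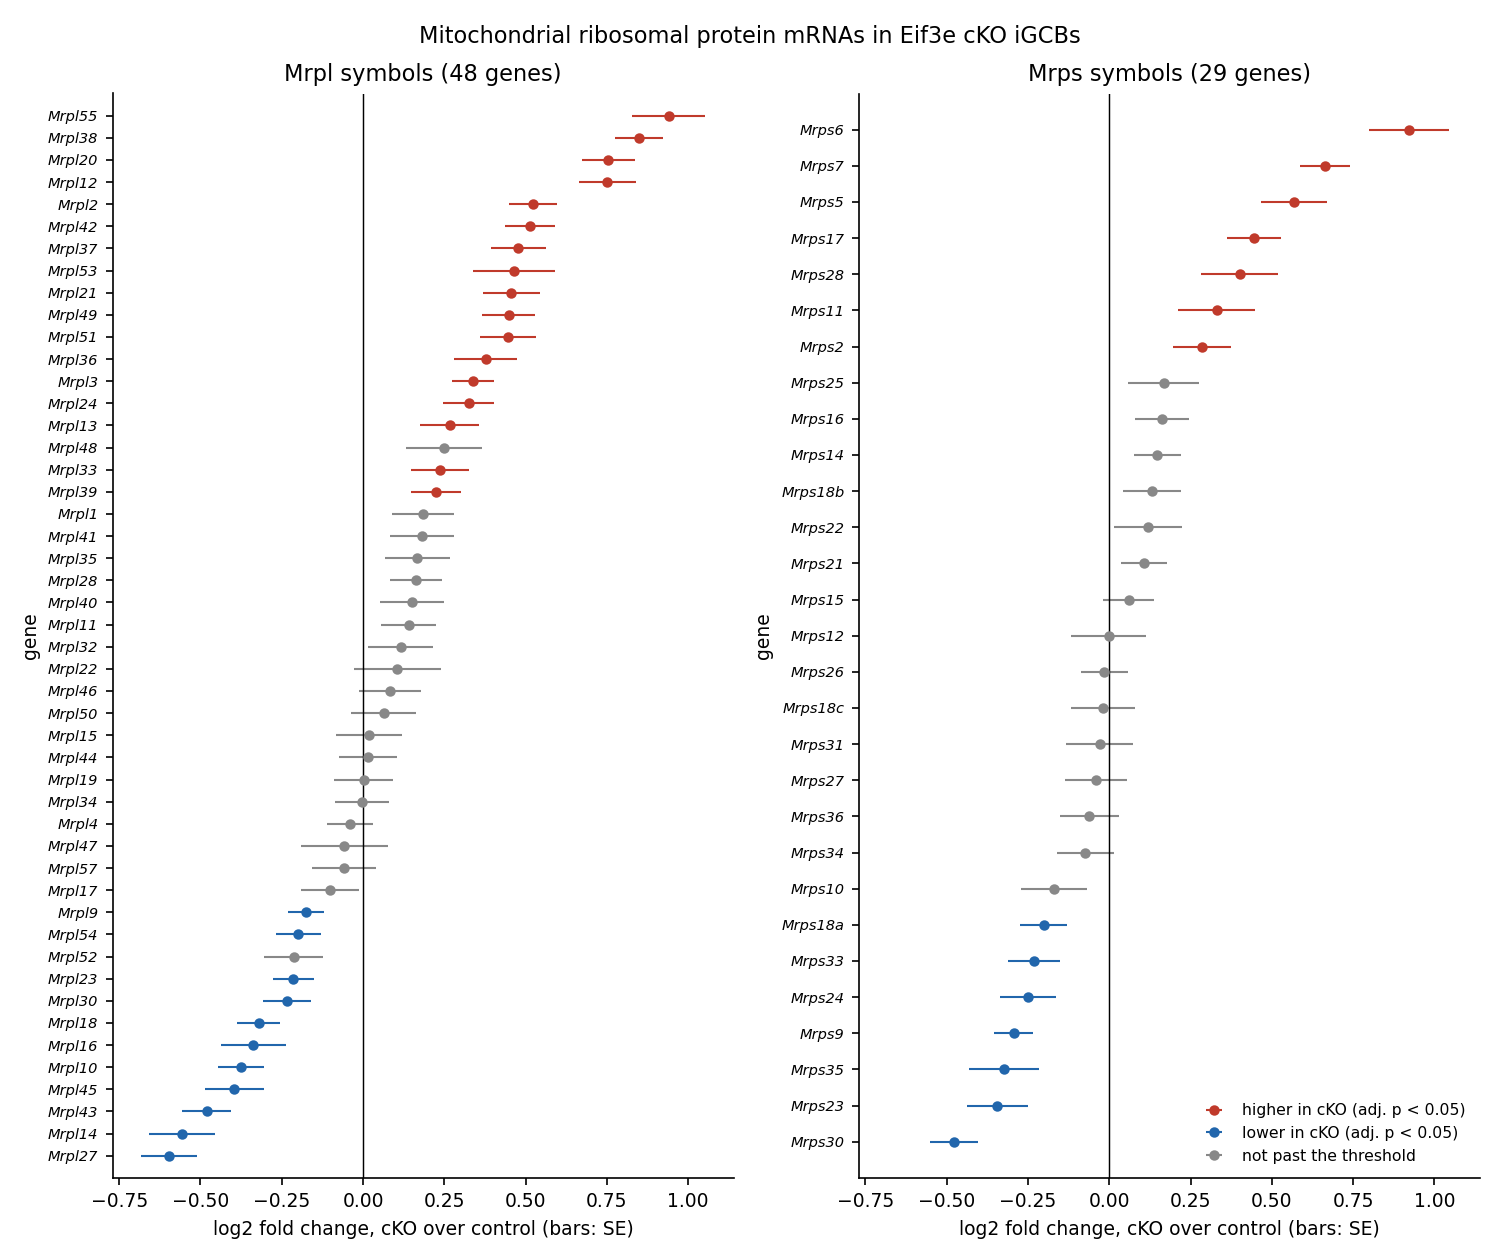
Log2 fold change of each of the 77 members in cKO over control iGCBs, ordered within *Mrpl* (left) and *Mrps* (right) symbols, with bars for the SE of the fit to 3 mice per group. Red points passed the test upward (17 and 7 genes), blue points downward (11 and 7 genes), and grey points did not pass. *Mrpl55* at 0.94 and *Mrpl27* at −0.60 are the ends of the range.

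The 6 members past 1.5-fold upward came from both subunits. *Mrpl55*, the counterpart of bacterial L31 in the large subunit, had 19.7, 21.1 and 17.5 CPM in the cKO libraries and 10.0, 9.46 and 10.9 CPM in the controls. Its log2 fold change of 0.94 (SE 0.113, adjusted p = 8.21e-05) was the largest among the 77 members. The gene lies at chr11:59202486-59206134 (GRCm38, plus strand).

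*Mrps6*, the counterpart of bacterial S6 in the platform of the small subunit, had 23.2, 25.03 and 22.7 CPM in cKO against 12.9, 14.0 and 10.4 CPM in control (log2 fold change 0.92, SE 0.122, adjusted p = 0.000159). *Mrps6*, at chr16:92058270-92112227 on the plus strand, shares 159 bases of exon on the same strand with *Slc5a3*, which encodes the sodium-coupled myo-inositol transporter. *Slc5a3* was itself higher, at a mean of 14.0 against 7.33 CPM (log2 fold change 0.93, adjusted p = 0.00137), so reads of the shared exon may be split between both and the size of the *Mrps6* change is uncertain.

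*Mrpl38* of the large subunit's central protuberance had 48.7, 49.6 and 51.1 CPM in cKO against 27.7, 26.6 and 28.6 CPM in control. The groups were far apart for their spread, and its log2 fold change of 0.85 had an SE of 0.0736 (adjusted p = 1.14e-05). It lies at chr11:116131817-116138868 on the minus strand. *Mrpl20*, whose bacterial counterpart is an early assembly protein of the large subunit, had 47.8, 47.7 and 52.3 CPM against 30.1, 27.3 and 30.2 CPM (log2 fold change 0.75, SE 0.0806, adjusted p = 4.01e-05). It lies at chr4:155802878-155809975 on the plus strand, and its promoter with the E-box is printed above.

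*Mrpl12* is the counterpart of bacterial L7/L12, the stalk protein that recruits translation factors, and it is also known to bind the mitochondrial RNA polymerase. It had 101, 111 and 103 CPM in cKO against 62.8, 54.3 and 69.9 CPM in control (log2 fold change 0.75, SE 0.0869, adjusted p = 6.68e-05). *Mrps7*, which binds the head of the small subunit RNA, had 113, 131 and 132 CPM in cKO against 77.8, 74.1 and 85.6 CPM in control (log2 fold change 0.66, SE 0.0770, adjusted p = 6.79e-05). In both genes the lowest cKO library was above the highest control. *Mrpl12* lies at chr11:120484613-120489065 and *Mrps7* at chr11:115603925-115608036, both on the plus strand.

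**Figure D2:**
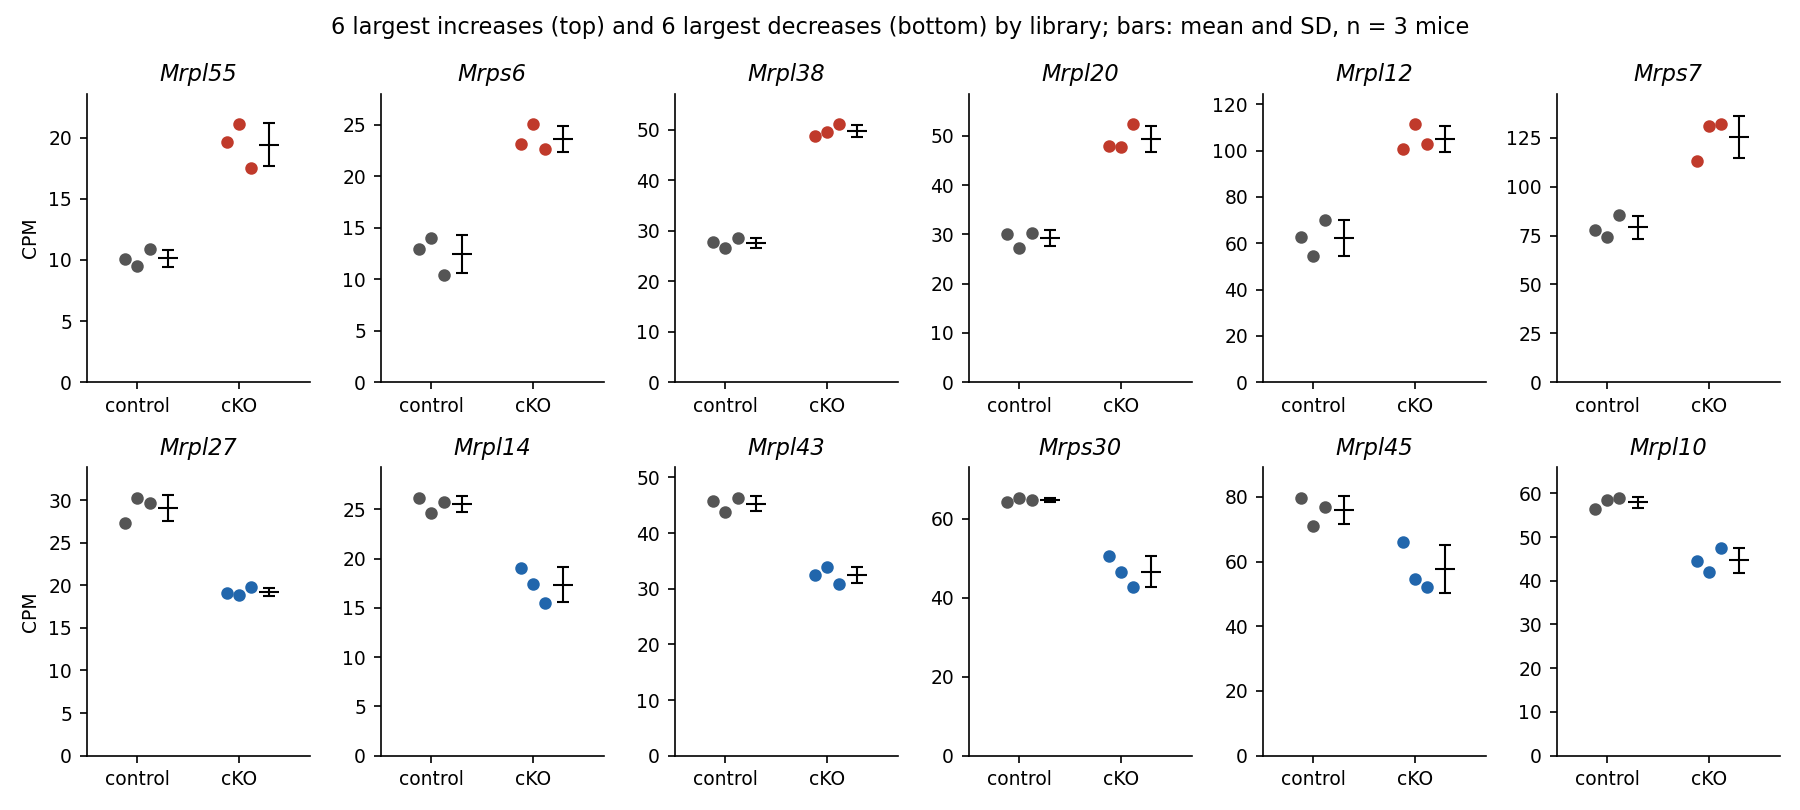
CPM of the 6 members with the largest increase (top row) and the 6 with the largest decrease (bottom row) in each of the 3 control (grey) and 3 cKO (coloured) libraries, on axes that start at 0; the bar beside each group is the mean and SD (n = 3 mice). In all 12 genes the groups do not overlap, and the genes were chosen for that and for their size of change.

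The members were also sorted by subunit and by whether they have a bacterial counterpart. Each class count below stands beside the same backgrounds of 24.1% higher and 24.5% lower, and in classes this small nothing is read from a count as particular to the class.

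Of the other large subunit proteins with bacterial counterparts, *Mrpl2*, a protein next to the peptidyl transferase center, rose from 41.8 ± 2.17 to 60.0 ± 3.55 CPM (SD, n = 3 each; adjusted p = 0.000243 by edgeR). *Mrpl3*, another protein close to that center, rose less, from 57.5 ± 3.44 to 72.7 ± 2.38 CPM (SD, n = 3 each; adjusted p = 0.00156 by edgeR). In all, 10 of the 30 members of this class were higher and 8 were lower, with a median log2 fold change of 0.11.

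*Mrpl27*, whose bacterial counterpart reaches into the peptidyl transferase center, was the one member past 1.5-fold downward and lies at chr11:94653767-94660089 on the plus strand. It had 19.1, 18.8 and 19.8 CPM in cKO against 27.3, 30.3 and 29.7 CPM in control (log2 fold change −0.60, SE 0.0862, adjusted p = 0.000280). Leaving out cKO replicate 2, control replicate 2 or control replicate 3 brought it inside 1.5-fold (log2 fold change −0.58, −0.57 and −0.58), with the test still passed. *Mrpl14*, at the face where the subunits meet, had 19.0, 17.4 and 15.5 CPM against 26.1, 24.6 and 25.8 CPM (log2 fold change −0.56, SE 0.101, adjusted p = 0.00115).

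*Mrpl10* encodes the base of the stalk to which copies of Mrpl12 are attached, and it moved opposite to *Mrpl12*. *Mrpl10* had 44.6, 41.9 and 47.5 CPM in cKO against 56.5, 58.4 and 58.9 CPM in control (log2 fold change −0.38, SE 0.0703, adjusted p = 0.00142). *Mrpl53*, a mitochondria-specific large subunit protein, rose from 10.9 ± 1.04 to 15.0 ± 1.77 CPM (SD, n = 3 each; adjusted p = 0.0117 by edgeR), a call that was lost without control replicate 2 (0.0546). *Mrpl53* overlaps another gene model by 418 bases on the same strand, and *Mrpl10* and *Mrpl12* overlap only noncoding transcripts on the opposite strand.

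*Mrpl18*, whose bacterial counterpart binds 5S rRNA, fell from 74.4 ± 0.372 to 59.6 ± 4.74 CPM and *Mrpl16* from 23.0 ± 0.612 to 18.2 ± 1.82 CPM (SD, n = 3 each; adjusted p = 0.00272 and 0.0181 by edgeR). The call for *Mrpl16* was lost when cKO replicate 1, cKO replicate 2 or control replicate 2 was left out, with adjusted p of 0.0561, 0.0677 and 0.0528. *Mrpl9*, the member with the highest control level, fell by 0.18 on the log2 scale, from 88.7 ± 0.653 to 78.5 ± 4.04 CPM (SD, n = 3 each; adjusted p = 0.0239 by edgeR). That call was lost without cKO replicate 2, cKO replicate 3, control replicate 1 or control replicate 3 (adjusted p 0.0523 to 0.0749).

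Among the 20 large subunit proteins without a bacterial counterpart, counting Mrps30 and the non-member Ict1 by their position, 7 were higher and 4 were lower, with a median log2 fold change of 0.12. *Mrpl37* and *Mrps30* encode related proteins of this class and moved apart. *Mrpl37* had 57.8, 65.1 and 69.2 CPM in cKO against 46.8, 42.4 and 48.7 CPM (log2 fold change 0.48, SE 0.0848, adjusted p = 0.00103), and *Mrps30*, a large subunit protein in spite of its name, had 50.5, 46.4 and 42.6 CPM against 64.3, 65.2 and 64.7 CPM (log2 fold change −0.48, SE 0.0736, adjusted p = 0.000425). No library of one group reached the range of the other in either gene.

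*Mrpl45* holds the mitoribosome to the inner membrane at the peptide exit. Its mRNA stood at 66.2, 54.7 and 52.1 CPM in cKO against 79.7, 71.1 and 77.0 CPM in control, a change of −0.40 on the log2 scale (SE 0.0905, adjusted p = 0.00459). *Mrpl43* had 32.5, 33.8 and 30.9 CPM in cKO against 45.7, 43.7 and 46.3 CPM in control (log2 fold change −0.48, SE 0.0753, adjusted p = 0.000462), and 278 bases of its exons overlap those of *Twnk*, the mitochondrial DNA helicase gene, on the opposite strand. *Twnk* is counted under its older symbol *Peo1* and did not pass (17.8 and 17.3 CPM in cKO and control, adjusted p = 0.806 by edgeR). *Mrpl42* rose from 30.6 ± 0.344 to 43.7 ± 2.37 CPM (SD, n = 3 each; adjusted p = 0.000341 by edgeR). *Ict1*, an older symbol of *Mrpl58* and therefore no member by the rule, encodes a peptidyl-tRNA hydrolase built into the large subunit and did not pass, at 16.5 ± 0.979 CPM in cKO against 19.3 ± 1.36 CPM in control (SD, n = 3 each; adjusted p = 0.0911 by edgeR).

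In the small subunit, 6 of the 15 proteins with bacterial counterparts were higher and 2 were lower, with a median log2 fold change of 0.15, where 24.1% and 24.5% of all tested genes were higher and lower. Besides *Mrps6* and *Mrps7*, *Mrps5*, a protein near the mRNA entry site, had 43.4, 43.0 and 47.5 CPM in cKO against 27.6, 28.1 and 34.6 CPM in control (log2 fold change 0.57, SE 0.102, adjusted p = 0.00108). *Mrps17*, *Mrps11* and *Mrps2* were also higher, by 0.44, 0.33 and 0.28 on the log2 scale. *Mrps2* lost its call without cKO replicate 2, cKO replicate 3, control replicate 1 or control replicate 2 (adjusted p 0.0604 to 0.111 by edgeR). *Mrps12*, whose bacterial counterpart S12 is the decoding-site protein in which streptomycin resistance arises, stood at 17.2 ± 1.21 CPM in cKO against 17.2 ± 1.97 CPM in control (SD, n = 3 each), with an SE of 0.114 on its log2 fold change.

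*Mrps9*, 1 of the 2 decreases in this class, had 50.7, 51.4 and 49.6 CPM in cKO against 63.6, 61.2 and 61.1 CPM in control (log2 fold change −0.29, SE 0.0600, adjusted p = 0.00238). Of the 9 members with *Mrps* symbols listed as small subunit proteins found only in mitochondria, 0 were higher and 3, *Mrps23*, *Mrps33* and *Mrps35*, were lower, with a median log2 fold change of −0.04, beside the same background. By symbol this class leaves out *Ptcd3*, *Aurkaip1*, *Chchd1* and *Dap3*, which are of the same kind and are described with the other-named subunits below, and of which the first 3 were higher. Within the 9, none was higher at an unadjusted p under 0.05 (0 by edgeR's quasi-likelihood test) or by DESeq2 (0), which called 2 lower. All 3 lower calls were lost without cKO replicate 1 and likewise without control replicate 1. Of these, *Mrps23* had 41.5, 42.4 and 47.7 CPM against 58.5, 48.5 and 60.0 CPM (log2 fold change −0.34, SE 0.0948, adjusted p = 0.0125), with the groups only just apart. *Mrps35* fell by 0.32 on the log2 scale (SE 0.107, adjusted p = 0.0289), and its cKO replicate 2 at 26.5 CPM nearly met control replicate 2 at 26.7 CPM. *Mrps33* had 28.6, 27.3 and 27.3 CPM against 32.8, 33.9 and 31.1 CPM (log2 fold change −0.23, SE 0.0795, adjusted p = 0.0340). *Mrps28*, also of the small subunit, had been placed in neither class, so that their counts leave it out. The same holds for *Mrps18b*, which did not pass and is described below. *Mrps28* was higher, with 21.5, 20.3 and 25.2 CPM in cKO against 17.8, 14.9 and 18.02 CPM in control (log2 fold change 0.40, SE 0.118, adjusted p = 0.0174), without overlap. Its call was lost without cKO replicate 3 (0.0688), without control replicate 2 (0.0737) and with *Xist* as a covariate (0.0618). Whether the classes differ from each other was not tested.

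Calls for *Mrps23*, *Mrps35* and *Mrps33* depended on single libraries. *Mrps23* lost its call without cKO replicate 1 or control replicate 1 (adjusted p = 0.0515 and 0.0570 by edgeR), and *Mrps35* without cKO replicate 1, cKO replicate 3, control replicate 1 or control replicate 3 (0.0744 to 0.116) and with *Xist* as a covariate (0.0772). *Mrps33* lost its call when any library but control replicate 3 was left out (0.0570 to 0.111), with DESeq2 (0.0546), with the replicate block (0.0557) and with *Xist* as a covariate (0.0772).

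Mammals have 3 paralogs of the single bacterial protein S18. *Mrps18a*, which is built into the large subunit, had 41.5, 38.1 and 37.3 CPM in cKO against 44.98, 45.4 and 44.2 CPM in control (log2 fold change −0.20, SE 0.0735, adjusted p = 0.0434), and this call was lost in 10 of 13 alternative fits. *Mrps18b* of the small subunit had a log2 fold change of 0.13 (SE 0.0898, adjusted p = 0.258), and 38.6% of its transcript is nearly identical to the pseudogene *Gm13552*. *Mrps18c*, the paralog at the S18 position proper, had −0.02 (SE 0.0990, adjusted p = 0.892). *Mrps18b* and *Mrps18c* thus did not pass, and in both the groups overlapped.

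*Mrps36* bears a ribosomal symbol but encodes an adaptor of the 2-oxoglutarate dehydrogenase complex, an enzyme of the citric acid cycle. It stood at 22.2 ± 0.607 CPM in cKO against 23.2 ± 1.62 CPM in control (SD, n = 3 each; adjusted p = 0.609 by edgeR). It is therefore among the 35 members that did not pass.

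The order of the members by level differed between the groups at the top. By CPM, *Mrpl9* came first in control iGCBs with a mean of 88.7 CPM, followed by *Mrps7* with 79.2 and *Mrpl45* with 75.9 CPM. *Mrps7* was first in cKO iGCBs with 125 CPM, followed by *Mrpl12* with 105 CPM, which was 6th in control, and *Mrpl9* with 78.5 CPM. In the control order the ranges of *Mrps7*, *Mrpl45* and *Mrpl18* overlapped.

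CPM rises with transcript length, so levels were also divided by the length of the longest coding transcript of each gene in GENCODE M21, which gives too low a value where a shorter transcript is the one in use. On this scale the members ranged over all libraries from 3.35 CPM per kilobase for *Mrps25* to 79.0 for *Mrps21*, with a median of 23.7. *Mrpl52* was first in control, with 83.8 CPM per kilobase, followed by *Mrpl54* with 77.6 and *Mrps21* with 76.1, but the ranges of these 3 genes over the control libraries overlapped. In cKO, *Mrps21* came first with 82.0, and *Mrpl12* moved from 13th place and 47.4 CPM per kilobase in control to 2nd place and 79.7 in cKO, where its range overlapped that of *Mrps21*.

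**Figure D3:**
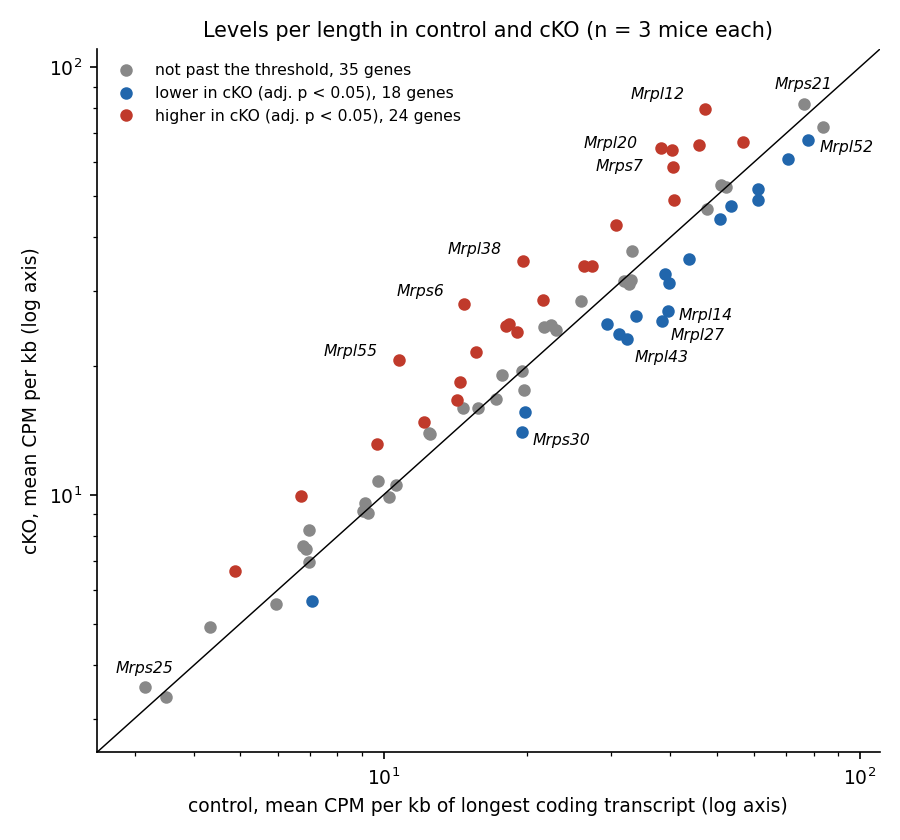
Mean CPM per kilobase of the longest coding transcript of each member in control (horizontal) and cKO (vertical) iGCBs, both on log axes, with the line of equal levels (n = 3 mice each). Red and blue points are the 24 higher and 18 lower members; *Mrpl12* stands at 47.4 in control and 79.7 in cKO, and *Mrps30* at 19.5 and 14.0.

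Summed over all 77 members, the level was 2845, 2897 and 2864 CPM in the cKO libraries and 2689, 2608 and 2771 CPM in the controls. The groups did not overlap, and the ratio of means was 1.07. The 48 *Mrpl* genes summed to 1858 ± 21.8 CPM in cKO against 1723 ± 54.4 CPM in control (SD, n = 3 each), a ratio of 1.08, and the 29 *Mrps* genes to 1011 ± 14.4 and 966 ± 27.5 CPM (SD, n = 3 each), a ratio of 1.05. Protein levels and the number of mitoribosomes were not measured here.

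**Figure D4:**
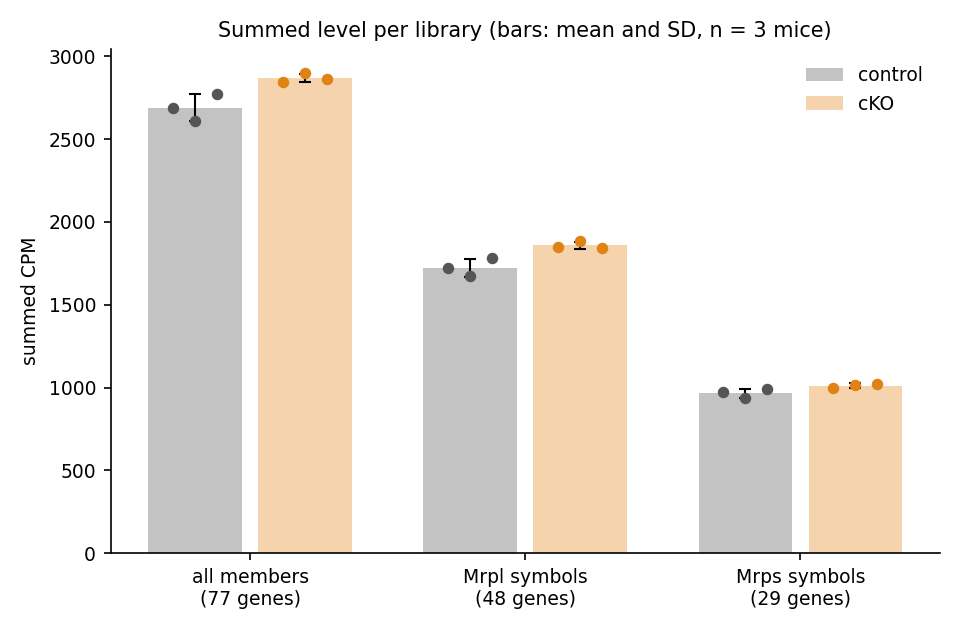
Summed CPM of all 77 members and of the *Mrpl* and *Mrps* genes in each library (points), with the mean (bar) and SD (line) of 3 control (grey) and 3 cKO (orange) mice. For all members the cKO libraries lie between 2845 and 2897 CPM and the control libraries between 2608 and 2771 CPM.

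*Mrps11* and *Mrpl46* are transcribed in opposite directions from the shared promoter on chromosome 7 shown above, with RefSeq start sites 42 bases apart. The GENCODE M21 gene spans overlap instead, at chr7:78783119-78792989 for *Mrps11* and chr7:78775236-78783531 for *Mrpl46*, because a noncoding *Mrpl46* transcript starts farther out. *Mrps11* had 25.3 ± 2.10 CPM in cKO against 20.1 ± 2.71 CPM in control (SD, n = 3 each; log2 fold change 0.33, adjusted p = 0.0396 by edgeR), without overlap. Its call was lost in 6 of 13 alternatives, among them each of cKO replicate 2, cKO replicate 3, control replicate 1 and control replicate 2 left out (0.0613 to 0.141). *Mrpl46* had 27.2, 28.9 and 26.7 CPM against 25.3, 23.9 and 28.9 CPM (log2 fold change 0.08, SE 0.0949, adjusted p = 0.508), and its groups overlapped. A difference between the partners was not tested.

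Exons of 25 members overlap those of another gene in the basic set of GENCODE M21, and 18 members have a near copy elsewhere, with at least 95% identity over at least 250 bases. Of the 24 higher members 11 had neither, as had 10 of the 18 lower ones. For *Mrps7* the partners on the opposite strand, *Gga3* and *Mif4gd*, had log2 fold changes of −0.01 and 0.07 and did not pass (adjusted p = 0.903 and 0.378). *Eme1*, which overlaps *Mrpl27* by 75 bases on the opposite strand, fell with it (log2 fold change −0.31, adjusted p = 0.0198), and *Mrpl27* has a near copy in the pseudogene *Gm6304*. *Mrps30* overlaps *B430218F22Rik* by 601 bases on the opposite strand. *Mrpl42* and *Mrps5* have near copies in *Gm6419* and *Gm13328*, over 64.4% and 22.7% of their transcripts. The sources used here do not state whether the counting used strand, so reads from overlapping genes on opposite strands may be counted for either gene.

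Transcript use within a gene, the share each transcript takes, was tested with edgeR's diffSpliceDGE in the 8 members with at least 2 transcripts high enough. None was called (0 of 8, where 0.702% of the 2990 genes tested were), and 0 had an unadjusted p under 0.05. On simulated data this test missed nearly all small shifts in transcript use and recovered most only when they were very large, so the lack of calls says little. *Mrpl55*, with the largest change at the gene level, had a p of 0.989. *Mrpl15* had the smallest p, 0.871. One *Mrpl15* transcript had 309, 310 and 281 estimated counts in cKO and 91, 102 and 186 in control, without overlap. Estimates of single transcripts varied widely between libraries of 1 group, as for the lesser *Mrps33* transcript, with 18, 111 and 248 counts in cKO and 31, 167 and 0 in control.

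Other parts of the mitochondrial translation system were described from lists sorted by function. Over 5 such lists with 84 tested genes, 30 were higher and 9 were lower, and their median log2 fold change was 0.14. These shares, 35.7% and 10.7%, stand beside the backgrounds of 24.1% and 24.5% given above.

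**Figure D5:**
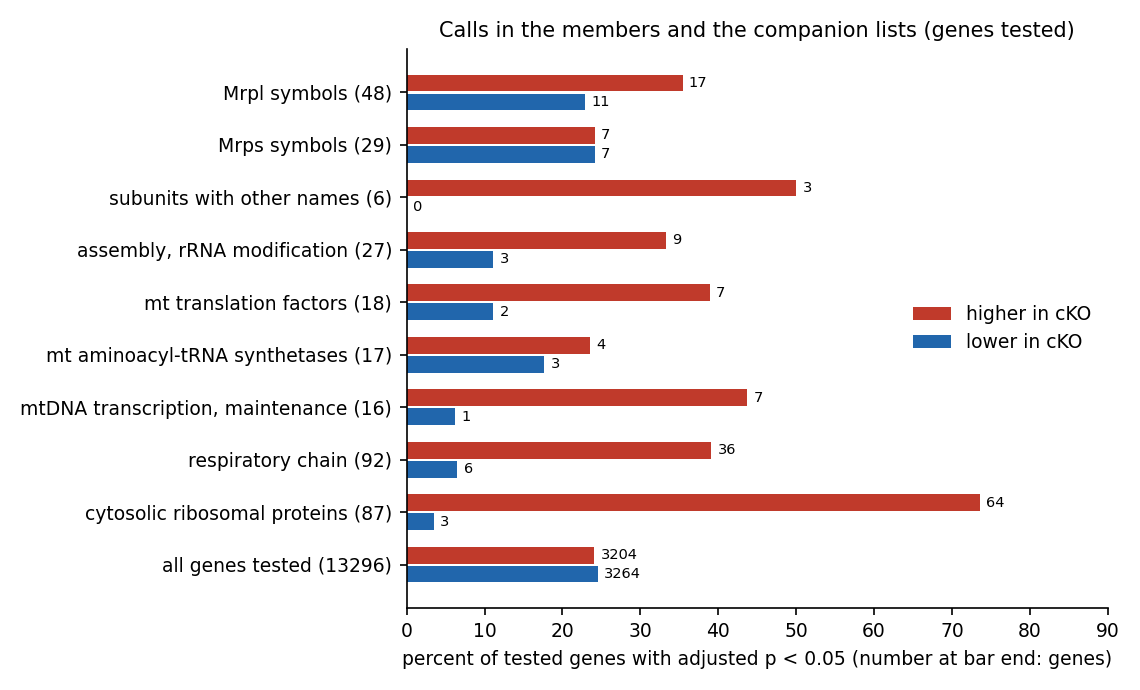
Percent of the tested genes in each list that were higher (red) or lower (blue) in cKO iGCBs at an adjusted p under 0.05, with the number of genes at the end of each bar and the number tested in parentheses. All tested genes, at the bottom, show 3204 higher and 3264 lower; cytosolic ribosomal proteins show 64 higher and 3 lower of 87.

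Mitoribosomal subunits with other kinds of symbol, *Ict1* again among them, numbered 6, of which 3 were higher and 0 were lower by edgeR, with 1 lower at an unadjusted p under 0.05 and 4 higher and 0 lower by DESeq2. *Ptcd3*, a small subunit protein with RNA-binding repeats, had 64.2, 71.0 and 61.1 CPM in cKO against 48.9, 47.6 and 47.3 CPM in control (log2 fold change 0.45, SE 0.0714, adjusted p = 0.000515). *Aurkaip1* and *Chchd1*, both of the small subunit, rose by 0.22 (adjusted p = 0.00906) and 0.31 (adjusted p = 0.0200) on the log2 scale. *Chchd1* lost its call without cKO replicate 3 or control replicate 1 (adjusted p = 0.0992 and 0.0692 by edgeR).

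*Dap3*, the GTP-binding protein of the small subunit, stood at 108 ± 8.33 CPM in cKO against 94.6 ± 6.80 CPM in control (SD, n = 3 each; adjusted p = 0.0568 by edgeR), and it passed with DESeq2 (0.0401), with total counts only (0.0436), with at least 10 counts required in every library (0.0447) and without cKO replicate 3 (0.0163). *Gadd45gip1* of the large subunit did not pass (log2 fold change 0.12, adjusted p = 0.110).

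For assembly factors and enzymes that modify mitochondrial rRNA, 9 of 27 genes were higher and 3 were lower. *Trub2*, a pseudouridine synthase of mitochondria, had 30.4, 38.0 and 31.8 CPM in cKO against 16.7, 20.0 and 20.2 CPM in control (log2 fold change 0.82, SE 0.115, adjusted p = 0.000239). *Wbscr16*, also called *Rcc1l*, a mitoribosome assembly factor, rose from 22.8 ± 2.80 to 39.0 ± 2.39 CPM (SD, n = 3 each; adjusted p = 0.000176 by edgeR). *Nsun4* and *Mterf4* encode the partners of 1 complex, an RNA methyltransferase and the protein that brings it to the large subunit.

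Both partners fell. *Mterf4* had 5.22, 5.96 and 5.47 CPM in cKO against 11.6, 9.13 and 8.62 CPM in control (log2 fold change −0.82, SE 0.154, adjusted p = 0.00144). *Nsun4* had 11.9, 11.7 and 9.22 CPM against 17.4, 16.5 and 19.5 CPM (log2 fold change −0.70, SE 0.129, adjusted p = 0.00131).

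Of 18 translation factors 7 were higher and 2 were lower. *Mtfmt*, which formylates the initiator tRNA, rose from 12.6 ± 0.297 to 19.8 ± 0.457 CPM, and *Lrpprc*, which stabilizes mitochondrial mRNAs, from 93.7 ± 1.83 to 145 ± 17.0 CPM (SD, n = 3 each; adjusted p = 0.000283 and 0.000113 by edgeR). *Mtif3*, an initiation factor, fell from 13.2 ± 0.269 to 9.58 ± 0.807 CPM (SD, n = 3 each; adjusted p = 0.00630 by edgeR). *Oxa1l*, the insertase that takes up new chains at the membrane beside Mrpl45, had 57.3, 51.3 and 59.1 CPM in cKO against 82.1, 84.2 and 82.9 CPM in control (log2 fold change −0.57, SE 0.0651, adjusted p = 6.12e-05).

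Among 17 mitochondrial aminoacyl-tRNA synthetases, which charge tRNAs with amino acids, 4 were higher and 3 were lower. *Aars2* for alanine rose from 17.2 ± 2.51 to 28.4 ± 2.33 CPM and *Rars2* for arginine from 23.5 ± 1.60 to 31.4 ± 1.32 CPM (SD, n = 3 each; adjusted p = 0.000645 and 0.00258 by edgeR). *Wars2* for tryptophan and *Lars2* for leucine fell by 0.47 and 0.29 on the log2 scale (adjusted p = 0.0123 and 0.00169). *Lars2* stood at 302 ± 18.6 CPM in cKO against 369 ± 7.16 CPM in control (SD, n = 3 each).

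Genes for transcription and upkeep of mitochondrial DNA numbered 16, of which 7 were higher and 1 was lower. *Polrmt*, the mitochondrial RNA polymerase that Mrpl12 is known to bind, had 41.8, 47.8 and 49.5 CPM in cKO against 32.6, 34.4 and 28.5 CPM in control (log2 fold change 0.54, SE 0.0979, adjusted p = 0.00114). *Gabpb1*, a subunit of the ETS factor GABP, rose from 57.3 ± 6.43 to 86.1 ± 4.42 CPM (SD, n = 3 each, adjusted p = 0.000222 by edgeR). *Gabpa*, for another GABP subunit, did not pass, at 135 and 134 CPM in cKO and control (adjusted p = 0.845 by edgeR). *Nrf1* and *Yy1* were higher, by 0.36 and 0.44 on the log2 scale (adjusted p = 0.000722 and 7.47e-05 by edgeR). *Polg*, the DNA polymerase of mitochondria, fell by 0.46 on the log2 scale, from 136 ± 6.13 to 98.9 ± 5.62 CPM (SD, n = 3 each; adjusted p = 0.000151 by edgeR). The mRNAs encoded by mitochondrial DNA were not analysed here.

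Respiratory chain genes, including assembly factors whose symbols begin alike, had 36 of 92 tested genes higher and 6 lower, with a median log2 fold change of 0.10. *Ndufaf4* and *Ndufaf2*, assembly factors of complex I, rose by 1.07 and 0.92 on the log2 scale (adjusted p = 0.000100 and 0.000196). *Ndufv3*, a complex I subunit, and *Atp5sl*, a complex I assembly protein in spite of its symbol, fell by 0.70 and 0.48 (adjusted p = 0.000234 and 0.00222).

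Cytosolic ribosomal protein genes encode the particle that translates the mRNAs of the members. Of 87 tested, 64 were higher and 3 were lower, with a median log2 fold change of 0.20. By edgeR 0 of the increases were past 1.5-fold, as were 0 by DESeq2 and 0 at an unadjusted p under 0.05. *Rpl12* rose from 1214 ± 2.02 to 1702 ± 10.6 CPM and *Rps27l* from 68.3 ± 4.69 to 96.3 ± 8.01 CPM (SD, n = 3 each; adjusted p = 3.61e-06 and 0.000393 by edgeR). *Rpl22l1*, a paralog of *Rpl22*, had 85.0, 72.5 and 65.9 CPM in cKO against 197, 180 and 193 CPM in control (log2 fold change −1.35, SE 0.0871, adjusted p = 2.47e-06), and *Rpl3* fell by 0.33 on the log2 scale (adjusted p = 0.000148). Many cytosolic ribosomal protein genes have near-identical pseudogenes, so single values in this list are uncertain.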

How the data were processed

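Per the labels and the study's methods, poly(A) RNA from sorted YFP+ iGCBs of 3 cKO and 3 control replicates was sequenced. After trimming, the authors used HISAT2 for alignment and StringTie for quantification. The submitters' processing notes name mm10. The deposited estimated counts, 1 table for genes and another for RefSeq transcripts, come from StringTie's prepDE script, are whole numbers and are not normalized. Tool versions and the strand setting were not given in the sources used here. Columns were assigned to samples by library name.

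The gene table was filtered (filterByExpr, minimum count 10), scaled by TMM and tested by quasi-likelihood in edgeR 4.0.16 under R 4.3.3. The model held genotype alone, and p-values were adjusted by Benjamini-Hochberg over 13296 genes. A call needed an adjusted p under 0.05. DESeq2 1.42.0, the study's tool, DESeq2 size factors, total counts only, other filters, *Xist* as a covariate, the replicate block and each library left out were alternatives. CPM use TMM-scaled library sizes. Totals were 39079582 to 45504570 counts per library, and the floor of 3 counts covers counting error only. On simulated data the gene test recovered most of the seeded larger changes and about as many of the seeded 1.5-fold changes as it missed, with few false calls; the transcript test recovered only very large shifts reliably. Transcript use was tested with diffSpliceDGE, and transcripts were matched to genes for 34674 of 36026 rows. Positions are from GENCODE M21 (GRCm38), by symbol, for 77 of 77 members.

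The members and the lists were chosen with earlier results of these data known. *Gabpa*, *Nrf1*, *Yy1* and *Peo1* of the mitochondrial DNA list were named after their values were seen. Members named were the 10 largest increases and 10 largest decreases among called members that averaged 5 CPM or more and whose groups did not overlap, the 3 highest by CPM, a fixed set (*Mrpl12*, the *Mrps18* paralogs, *Mrps30*, *Ict1*, *Mrps12*, *Mrps36* and the subunits with other symbols), and up to 2 genes per direction in each list; other members (*Mrpl3*, *Mrpl15*, *Mrpl36*, *Mrpl46*, *Mrpl52*, *Mrpl53*, *Mrpl54*, *Mrps2*, *Mrps9*, *Mrps11*, *Mrps17*, *Mrps21*, *Mrps25*, *Mrps28* and *Mrps33*) were chosen after their values were seen.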

Additional observations from a re-analysis of the deposited data

How the results depend on the processing

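Of the 24 higher members, 17 were called in the same direction in each of the 13 alternatives, and of the 18 lower members 8 were. The share of all called genes that held in this way is not given here. All 6 members past 1.5-fold upward were among the 17, and *Mrpl27*, *Mrpl14*, *Mrpl43*, *Mrps30*, *Mrpl45*, *Mrpl10*, *Mrpl18* and *Mrps9* were the 8. With all libraries in the fit, the members called ranged from 19 higher and 13 lower with *Xist* as a covariate to 24 and 18. Each library left out in turn gave 18 to 22 higher and 10 to 14 lower members, 6 to 7 higher and 0 to 2 lower past 1.5-fold (2 without cKO replicate 1, 0 without cKO replicate 2 and 0 without control replicate 3), 25 to 28 higher and 7 to 11 lower genes in the functional lists, and a median member log2 fold change of 0.0539 (without control replicate 2) to 0.126; these fits have fewer samples. The lower calls fell to 11, 11 and 10 without cKO replicate 1, cKO replicate 3 and control replicate 1. Over all tested genes, the fits with a library left out gave 20.1% to 22.6% higher and 21.0% to 22.3% lower. *Eif3e* stayed between −1.43 and −1.32. Transcript use called 0 members under each of its alternatives. The summed level had a ratio of 1.07 with DESeq2 size factors and with total counts only.

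The replicate numbers are shared by the groups in the labels, but the cKO and control libraries with the same number correlated in their deviations from the group means at −0.04, 0.30 and 0.38 for numbers 1, 2 and 3, and cKO replicate 1 was most like control replicate 3, so they were not taken as pairs. With the replicate block, 22 members were higher and 14 lower, beside 23.1% and 23.8% of all tested genes. Of the members, 6 and 1 were past 1.5-fold, and *Mrps18a* lost its call (adjusted p = 0.0634 by edgeR).

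Members without a call changed sign at sizes under their SE, and the cause was not tested. *Mrps12* was at 0.00500 with DESeq2 size factors, 0.00133 with total counts only, 0.00650 with DESeq2, 0.00374 with at least 10 counts in every sample and 0.00118 with the replicate block. With each library left out in turn, *Mrps12* ranged from −0.0888 to 0.0852 and *Mrps18c* from −0.108 to 0.0434; *Mrps12* was above 0 without cKO replicate 1 (0.0455), cKO replicate 3 (0.00225) and control replicate 3 (0.0852), and *Mrps18c* without cKO replicate 1 (0.0219), control replicate 1 (0.0434) and control replicate 3 (0.00370). Fold changes near the SE, 0.0557 to 0.134 over the members, lie at the limit of 3 mice per group.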
